A study of Mus musculus with 8 samples.

Results

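The transcripts described here are those of 69 genes for splicing factors and heterogeneous nuclear ribonucleoproteins (hnRNP proteins), of 38392 genes in a table that compares mouse cells sorted as eosinophils from 2 tissues. They were chosen by symbol as the SR protein genes (Srsf), the hnRNP genes (Hnrnp), the genes of splicing factors 3a and 3b (Sf3a, Sf3b), of small nuclear ribonucleoprotein polypeptides (Snrp), of the U2 auxiliary factor (U2af) and of the PRP factors (Prpf). Symbols ending in a pseudogene suffix were left out. Eosinophils were sorted by flow cytometry from the bone marrow as CD11b+Ly6G-Ly6C-SiglecF+SSChi cells and from the small intestine as CD11b+MHC-II-SiglecF+SSChi cells, with 4 libraries per tissue. The donors were wildtype C57/BL6 mice, female by the text of the study, and the labels gave no age and no treatment. Intestinal cells had been released by warm enzymatic digestion and enriched on beads against CD11b, and bone marrow cells had not, so tissue and handling cannot be told apart. Column names serve as library names, and values are given in the order BM_1, BM_3, BM_4, BM_5 for the bone marrow and SI_6, SI_7, SI_10, SI_11 for the small intestine. The labels list the libraries as separate samples, and p-values cover the spread between them.

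Splicing removes introns from pre-mRNA. The spliceosome is assembled for this from small nuclear ribonucleoproteins (snRNPs), in most of which a ring of Sm proteins sits on the U snRNA. U1 marks the 5′ splice site, U2AF reads the end of the intron, and U2 with SF3A and SF3B holds the branch site. U4/U6 and U5 with the PRP factors complete the machine. SR proteins and hnRNP proteins bind the pre-mRNA and often act in opposite directions on the choice of exons. Eosinophils are granulocytes that divide as precursors in the bone marrow and live in tissues, the intestinal wall among them, without dividing.

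The recovered reads ranged from 11508002 to 21289164 per library. Of 6 eosinophil markers, Ccr3, Il5ra, Siglecf and Alox15 were higher in the small intestine and the granule genes Epx and Prg2 were lower, and the list took 0.0189% to 0.029% of the reads in the bone marrow libraries and 0.215% to 0.268% in the small intestine libraries. In the bone marrow, 12 genes of neutrophil precursors took 3.95% to 4.68% of the reads, against 0.00518% to 0.00714% in the small intestine, where 11 of them were lower and Mmp8 was higher. All 10 proliferation genes were lower in the small intestine, with 0.364% to 0.423% of the reads in the bone marrow and 0.0195% to 0.0566% in the small intestine. All 10 epithelial genes (0.00149% to 0.0018% against 0.0419% to 0.317%, highest in SI_6), 9 of 10 macrophage and dendritic cell genes (0.00687% to 0.00848% against 0.0987% to 0.159%) and all 10 genes of the response to cell dissociation (0.00372% to 0.00525% against 0.379% to 0.472%) were higher there. Adgre1 had the most reads of the macrophage and dendritic cell genes in every small intestine library. Its mean there, scaled for depth, was 13672, against 3141 for Cd74, the next. The study identified human eosinophils by EMR1, the human protein of Adgre1, so the share of that list is not specific to macrophages and dendritic cells. All 6 erythroid genes were lower in the small intestine, and 1 of 5 B cell and plasma cell genes was higher and 1 lower. No marker was at 0 in all libraries. The bone marrow libraries thus held many more reads of neutrophil precursor genes than of eosinophil genes, against their label, and each difference below sets these mixtures side by side. In such bulk samples fewer cells of a type and less RNA per cell cannot be told apart, and the part of these markers in the differences below was not tested.

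Most of the splicing genes were lower in the small intestine libraries than in the bone marrow libraries, and a small set was higher. By limma on the deposited log2 values, with adjustment over all 38392 genes, 39 of the 69 genes were lower at an adjusted p under 0.05, 6 were higher and 24 were not called. Of all genes, 12.9% were called lower, 22.0% higher and 34.9% in either direction. Since the share of genes called grows with the number of reads, the genes were also set beside others with many reads. Of the 67 splicing genes that averaged at least 10 reads, 39 were lower and 5 higher, where 28.6% of the 16215 genes at that level were lower, 34.6% higher and 63.1% either. Of the 35 that averaged at least 1000 reads, 18 were lower and 4 higher, where 31.8% of 2791 genes were lower, 37.3% higher and 69.1% either. The share of splicing genes that were lower was thus above, and the share that were higher below, that of genes at the same read level. The libraries of the tissues did not overlap for 50 of the 69 genes, 40 of them lower and 10 higher in the small intestine, where 34.3% of all genes did not overlap (13.9% lower and 20.3% higher). Of genes averaging at least 10 reads, 67.4% did not overlap (31.3% lower and 36.0% higher), beside 40 lower and 9 higher of the 67. Of those averaging at least 1000 reads, 81.6% did not overlap (37.3% lower and 44.3% higher), beside 18 lower and 7 higher of the 35.

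On the deposited log2 scale, the median difference of the 69 genes (small intestine minus bone marrow, as for all differences here) was -0.66, beside 0.37 over all genes and 0.11 over genes averaging at least 1000 reads. A difference of 1 on this scale is close to a doubling for genes with many reads. There were 20 genes below -1 and 7 above 1. Each other scaling tried moved the median of the 69 genes down, so none shows how the falls would fare under a shift up. With each library centred on its median over all genes, the median of all genes moved from 0.37 to -0.53. That of the 69 genes moved to -1.56, and of the 6 rises only that of Snrpn kept its call. With centring on genes averaging at least 10 reads, 6 of the 69 genes were higher and 37 lower. By limma voom on recovered reads, 8 were higher and 40 lower. With quantile normalisation, the calls of Srsf5 and Sf3b1 were lost. Together the 69 genes took 1.18% ± 0.0308 (SD, n = 4) of the reads in the bone marrow and 0.842% ± 0.0206 in the small intestine. The libraries ranged from 1.15% to 1.22% in the bone marrow and from 0.816% to 0.863% in the small intestine, without overlap.

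**Figure D1:**
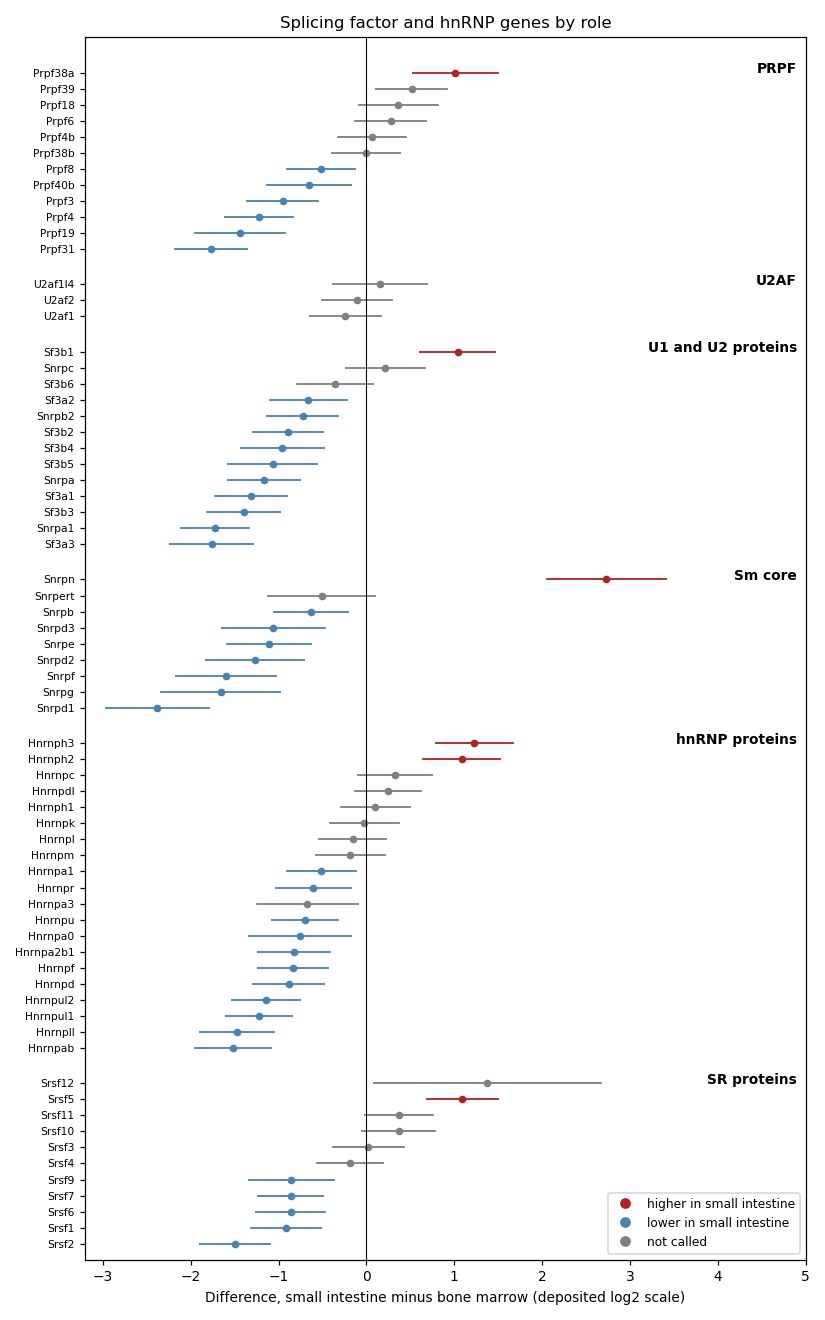
Difference between small intestine and bone marrow libraries for 68 of the 69 splicing genes, grouped by role, as small intestine minus bone marrow in deposited log2 units (points with 95% confidence intervals from limma over 8 libraries). Blue marks the 39 genes called lower, red the 6 called higher and grey 23 of the 24 not called at an adjusted p of 0.05, and the falls are most frequent among the Sm core and the U1 and U2 proteins.

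Falls were frequent in the Sm core, the ring that is loaded onto most spliceosomal U snRNAs. Of its 9 genes, 7 were lower, Snrpn was higher and Snrpert was not called, with a median difference of -1.11. The counts per role, here and below, are to be read beside the shares of other genes. Of all genes, 12.9% were lower, 22.0% higher and 34.9% either. Of genes averaging at least 10 reads, 28.6% were lower, 34.6% higher and 63.1% either. Snrpd1, which encodes the ring protein SmD1, fell furthest of the 69 genes. It had 808, 837, 659 and 549 in the bone marrow and 199, 116, 113 and 116 in the small intestine normalised counts (reads divided by the size factor of the library). All small intestine libraries lay far below all bone marrow libraries, SI_6 being the highest of them. The difference was -2.38 ± 0.26 (SE, adjusted p = 0.000165 by limma), a 5.24-fold lower mean count. Snrpg, the gene of the ring protein SmG, had 512, 503, 371 and 409 in the bone marrow and 164, 87.4, 119 and 212 in the small intestine normalised counts. Its groups did not overlap, although the small intestine libraries spread widely (-1.66 ± 0.29, adjusted p = 0.00240 by limma). Snrpb, which encodes SmB and had the most normalised counts of this group over all libraries (Snrpd1 had more in the bone marrow), had 684, 588, 563 and 502 in the bone marrow and 378, 348, 351 and 418 in the small intestine. It was lower in every small intestine library by a smaller step (-0.63 ± 0.18, adjusted p = 0.0275 by limma), and the call was lost without BM_1 (-0.56, adjusted p = 0.0725) or BM_4 (-0.65, adjusted p = 0.0536). Snrpd2, Snrpd3, Snrpe and Snrpf, the genes of the other ring proteins, were lower by 1.06 to 1.60. The Snrpf value is uncertain, since 85.4% of its exonic bases lie also in exons of genes on the opposite strand.

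Snrpn, which encodes SmN, a close relative of SmB that is made mostly in brain, went the other way. It had 0, 0, 0 and 0.93 normalised counts in the bone marrow and 16.4, 12.5, 9.85 and 8.30 in the small intestine. That is 1 read in all in the bone marrow and 40 in the small intestine, a ratio of 58.4 with an exact 95% interval of 9.9 to 2365 that covers counting error only. The groups did not overlap (2.73 ± 0.30, adjusted p = 0.000174 by limma). Of its 75-base windows, 22.6% are shared with other genes, and it overlaps Snurf on the same strand. Snrpert, annotated in GENCODE as a processed pseudogene, shares 50.2% of its 75-base windows with other genes. It had a mean of 12 reads, with 13.0, 10.4, 15.3 and 15.8 in the bone marrow and 4.37, 11.1, 12.03 and 8.30 in the small intestine normalised counts, and reads in those windows cannot be told apart.

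Among the U1 and U2 proteins, which recognise the 5′ splice site and the branch site, 10 of 13 were lower, Sf3b1 was higher, and Snrpc and Sf3b6 were not called (median -0.96). Sf3b6 (-0.36) was called lower without SI_11 (-0.46, adjusted p = 0.0487 by limma). Sf3a3, a subunit of SF3A (chr4:124714776-124732460 in GRCm38), had 863, 799.5, 699 and 659 in the bone marrow and 282, 193, 191 and 220.5 in the small intestine normalised counts. The groups lay far apart, and the fall was the furthest of this group (-1.76 ± 0.21, adjusted p = 0.000259 by limma). Snrpa1, the gene of the U2 protein A′ (chr7:66059003-66074587), had 530.2, 534, 575 and 521 in the bone marrow and 178, 147, 155 and 164 in the small intestine. Its libraries were close together within each tissue, and the mean was 3.35-fold lower in the small intestine (-1.73 ± 0.17, adjusted p = 9.46e-05 by limma). The other SF3A subunits, Sf3a1 (-1.31) and Sf3a2 (-0.66), and the SF3B subunits Sf3b3 (-1.39), Sf3b5 (-1.07), Sf3b4 (-0.96) and Sf3b2 (-0.89) were lower too. The Sf3a2 call was lost without BM_1, BM_3 or BM_4 (adjusted p from 0.0521 to 0.0576 by limma).

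Sf3b1, by contrast, rose. It encodes the largest SF3B subunit, which contacts the branch site (chr1:54985169-55027481). It had 7239.6, 6885, 7477 and 6495 in the bone marrow and 11738, 14529, 15210.2 and 16722 in the small intestine normalised counts. Each small intestine library exceeded each bone marrow library, SI_6 the least (1.04 ± 0.19, adjusted p = 0.00259 by limma). With quantile normalisation the Sf3b1 difference was 0.21 and not called (adjusted p = 0.272 by limma). Its partner Sf3b2 had 2602, 2584, 2622 and 2228 in the bone marrow and 1402, 1238, 1264 and 1508 in the small intestine, with every small intestine library below every bone marrow library. The U1 and U2 genes together took 0.132% ± 0.00738 (SD, n = 4) of the reads in the bone marrow and 0.122% ± 0.00969 in the small intestine, with overlapping libraries. The U1 protein gene Snrpa had 792, 681, 678 and 594 in the bone marrow and 318, 316, 279 and 299 in the small intestine, and Snrpb2, its U2 counterpart, had 708, 844, 874 and 756 in the bone marrow and 467, 535, 435 and 481 in the small intestine. Both were lower in every small intestine library, Snrpa by the larger difference (-1.17 against -0.72).

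The 3 U2AF genes, which read the polypyrimidine tract and the 3′ splice site, were not called. U2af1, the small subunit, had 502, 523, 486 and 398 in the bone marrow and 392, 391, 403 and 418 in the small intestine normalised counts, and its difference of -0.24 had a 95% interval from -0.64 to 0.16. U2af1l4, a relative of the small subunit, had 109.6, 96.5, 91.9 and 80.9 in the bone marrow and 71.0, 115, 123 and 121 in the small intestine, with a difference of 0.15 and an interval from -0.38 to 0.68. Their libraries overlapped between tissues, and so did those of U2af2, the large subunit (-0.11, interval -0.51 to 0.29). Without BM_5, U2af1 was called lower (-0.33, adjusted p = 0.0367 by limma). The U2af1l4 value is uncertain, since 66.1% of its exonic bases lie also in exons of other genes, on the same and on the opposite strand.

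SR proteins carry RNA recognition motifs and a tail rich in arginine and serine, and mostly promote the use of exons. Of 11 genes, 5 were lower, Srsf5 was higher and 5 were not called (median -0.19). Srsf2, an activator of exons that is needed for many splicing events, fell furthest, with 4160.3, 4145, 3704 and 3670.4 in the bone marrow and 1541, 1329, 1226 and 1471 in the small intestine normalised counts. All small intestine libraries were below all bone marrow libraries (-1.49 ± 0.18, adjusted p = 0.000266 by limma). Of the exonic bases of Srsf2, 25.3% lie also in exons of genes on the opposite strand. Srsf1, Srsf6, Srsf7 and Srsf9 were lower by 0.85 to 0.92. Srsf6 had 3423, 2908, 3183 and 3098 in the bone marrow and 1929.9, 1692, 1762 and 1555 in the small intestine, and Srsf7, which also serves in mRNA export, had 5073, 4939.97, 5227 and 4819 in the bone marrow and 2756, 2807, 2644 and 2844 in the small intestine. Neither overlapped between tissues. Srsf3, the other SR protein best known in export, had 5853, 6052, 6206 and 5473 in the bone marrow and 5055, 5989.5, 6487 and 6486 in the small intestine with overlapping groups (0.02, 95% interval -0.39 to 0.43). Srsf4 had 339, 323, 374 and 345 in the bone marrow and 305, 308, 301 and 296 in the small intestine. Of its exonic bases, 43.0% lie also in exons of a gene on the opposite strand. Its groups did not overlap, but the difference of -0.19 was not called (adjusted p = 0.439 by limma). Srsf10 (0.37) and Srsf11 (0.37) were likewise separate between the tissues, higher in the small intestine, and not called. Both were called without SI_10 (0.43, adjusted p = 0.0331 and 0.42, adjusted p = 0.0141 by limma).

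Srsf5 went against the SR proteins that fell (chr12:80945504-80950507). It had 7840.2, 7534, 7795 and 6776 in the bone marrow and 14488, 16327, 14870.00 and 18306 in the small intestine normalised counts. The lowest small intestine library was well above the highest bone marrow library (1.09 ± 0.18, adjusted p = 0.00148 by limma). With quantile normalisation the Srsf5 difference was 0.23 and not called (adjusted p = 0.240 by limma). In RPKM (reads per kilobase of exonic length, scaled to the reads in genes and computed here), Srsf5 had 141 ± 8.25 (SD, n = 4) in the bone marrow, second among the 69 genes to Hnrnpa2b1 at 168 ± 13.1. In the small intestine it had 250.5 ± 14.3, the highest of the 69 genes, followed by Hnrnph1 (80.7 ± 5.17), Sf3b1 (80.0 ± 9.60) and Hnrnpa2b1 (79.3 ± 6.37), which differed from one another by less than their spread. Srsf12 had 0.766, 0, 0 and 5.58 in the bone marrow and 5.46, 8.32, 8.75 and 1.19 in the small intestine normalised counts, and at a mean of 3.38 reads the groups overlapped (1.38 ± 0.57, adjusted p = 0.0967 by limma). BM_5 held nearly all its bone marrow reads, and without BM_5 the difference was called (1.86, adjusted p = 0.0199).

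**Figure D2:**
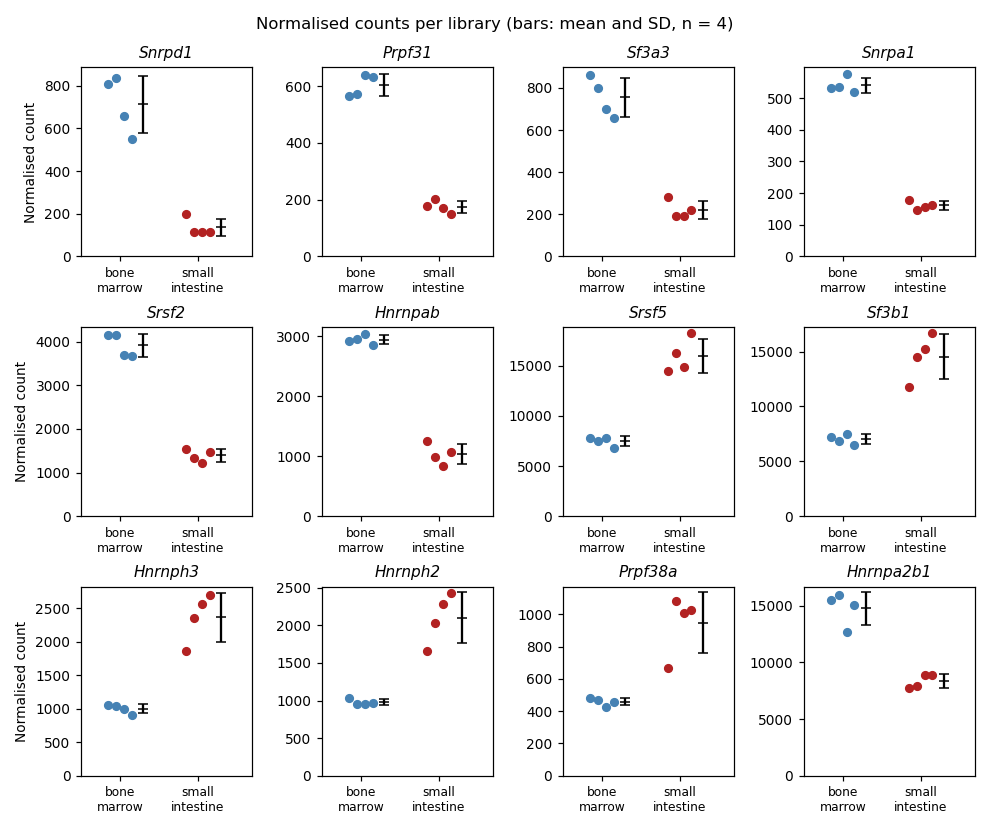
Normalised counts (reads divided by the size factor of the library, linear axes from 0) of 12 splicing genes in each of 4 bone marrow (blue) and 4 small intestine (red) libraries, with bars for the mean and SD. Snrpd1, Prpf31, Sf3a3, Snrpa1, Srsf2, Hnrnpab and Hnrnpa2b1 are lower and Srsf5, Sf3b1, Hnrnph3, Hnrnph2 and Prpf38a higher in the small intestine, with no overlap in any of the 12.

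Among the hnRNP genes, which package pre-mRNA and often silence exons, 11 of 20 were lower, 2 were higher and 7 were not called (median -0.64). Beside this, 28.6% of genes averaging at least 10 reads were lower, 34.6% higher and 63.1% either. Hnrnpab, a member of the family of AU-rich element binding proteins, fell furthest, with 2921, 2957, 3042 and 2851 in the bone marrow and 1251, 986, 840.1 and 1062 in the small intestine normalised counts. The groups were clearly apart (-1.52 ± 0.19, adjusted p = 0.000361 by limma), and 29.1% of its exonic bases lie also in an exon of a gene on the opposite strand. Hnrnpa2b1, the hnRNP gene with the most normalised counts, had 15529, 15925, 12649 and 15024 in the bone marrow and 7711, 7888, 8883 and 8873 in the small intestine. It was lower in every small intestine library (-0.82 ± 0.18, adjusted p = 0.00664 by limma). Its relative Hnrnpa1 was lower by less (-0.51, adjusted p = 0.0470 by limma), a call that was lost without BM_1, BM_3 or BM_4 (adjusted p from 0.0737 to 0.101). Hnrnpa0 was called lower (-0.76, adjusted p = 0.0481 by limma) although BM_4 lay level with the highest small intestine library, and 7 of 8 fits without 1 library lost the call (adjusted p from 0.0655 to 0.124). Hnrnpa3 was low in BM_4 as well (3134 normalised counts against 5319 to 6234 in the other bone marrow libraries). It was not called with all libraries (-0.67, adjusted p = 0.0717 by limma) and was called without BM_4 (-0.89, adjusted p = 0.0121). Hnrnpr was lower (-0.60, adjusted p = 0.0348 by limma), a call lost without BM_1, BM_3 or BM_4 (adjusted p from 0.0625 to 0.0641).

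Hnrnpll, known for its part in the splicing of the CD45 gene in lymphocytes, had 3668, 3402, 3773 and 3777 in the bone marrow and 1392, 1523, 1089.6 and 1287 in the small intestine normalised counts and was lower by 1.47. Its relative Hnrnpl had 1888, 1760.1, 1906 and 1782 in the bone marrow and 1618, 1584, 1556 and 1836 in the small intestine, with overlapping groups (-0.16, 95% interval -0.54 to 0.23). The scaffold gene Hnrnpu had 1667, 1820.1, 1689 and 1844 in the bone marrow and 1160.3, 1082, 1013 and 1069 in the small intestine and was lower by 0.70. Its relatives fell further on the log2 scale, Hnrnpul1 (6681, 6523, 6276 and 6301 in the bone marrow and 2932, 2747, 2496 and 2889.7 in the small intestine) by 1.22 and Hnrnpul2 (5882, 5794, 6327 and 5416 in the bone marrow and 2779, 2617, 2429.7 and 2758 in the small intestine) by 1.14. None of these 3 overlapped between tissues. Hnrnpd, the gene of the mRNA decay factor AUF1, had 4663, 5137, 4506 and 4726 in the bone marrow and 2742, 2419, 2269 and 2903 in the small intestine and was lower by 0.89. Its relative Hnrnpdl had 3803, 3658, 3707 and 3526 in the bone marrow and 4056, 4134, 4534 and 4729 in the small intestine. These groups were narrowly separate in the other direction, and the difference of 0.25 was not called (adjusted p = 0.299 by limma).

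The hnRNP H and F family, whose members bind runs of G, divided between the directions. Hnrnph3 had 1048, 1043, 1002 and 904 in the bone marrow and 1859, 2352, 2559 and 2692 in the small intestine normalised counts (1.23 ± 0.19, adjusted p = 0.00124 by limma). Hnrnph2 had 1037, 959, 951 and 971 in the bone marrow and 1658, 2032, 2286 and 2431 in the small intestine (1.08 ± 0.19, adjusted p = 0.00231 by limma). Both rose, with every small intestine library above every bone marrow library and SI_6 the lowest of them. Hnrnph1 had 6756, 6921, 7726 and 6686 in the bone marrow and 6889, 7249, 7786 and 8219 in the small intestine, with overlapping groups (0.10, 95% interval -0.29 to 0.49). Hnrnpf had 2322, 2302, 2312 and 1993 in the bone marrow and 1345, 1261, 1108 and 1287 in the small intestine, lower in every small intestine library (-0.84 ± 0.17, adjusted p = 0.00544 by limma). Copies make the Hnrnpf value uncertain, since 55.9% of its 75-base windows are shared with other genes.

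The PRP factors act at several steps, and their genes were mixed as well, with 6 of 13 lower, Prpf38a higher and 6 not called (median -0.39). Prpf31, which joins U4/U6 to U5 (chr7:3629985-3642486), fell furthest, with 566, 574, 641 and 631 in the bone marrow and 178, 202, 169.6 and 151 in the small intestine normalised counts. The groups were far apart (-1.77 ± 0.18, adjusted p = 0.000117 by limma). The U4/U6 genes Prpf4 (-1.22) and Prpf3 (-0.95) and Prpf19 (-1.44), a ubiquitin ligase of the active spliceosome, were lower too. Prpf8, the scaffold of the catalytic centre and the PRP factor with the most normalised counts, had 6931, 6915, 7463 and 6299.5 in the bone marrow and 4689, 4895, 4494 and 5195 in the small intestine. It was lower in every small intestine library (-0.52 ± 0.17, adjusted p = 0.0437 by limma), and the call was lost without BM_1, BM_3 or BM_4 (adjusted p from 0.0607 to 0.0987). The Prpf40b call (-0.65, adjusted p = 0.0419 by limma) was lost without BM_1, BM_3, BM_4 or SI_7 (adjusted p from 0.062 to 0.0909). Of the PRP factors not called, Prpf39 (0.52) was called higher without BM_5, SI_6 or SI_10 (adjusted p from 0.00503 to 0.0218 by limma), and Prpf18 (0.36) without SI_6 (0.47, adjusted p = 0.0449). Prpf38a, a factor of spliceosome activation, had 482, 471, 429 and 457 in the bone marrow and 668, 1082, 1011 and 1030.02 in the small intestine. It was higher in every small intestine library, SI_6 the least (1.01 ± 0.21, adjusted p = 0.00564 by limma). Its relative Prpf38b lay nearest to no difference of the 69 genes, with 3639, 3979, 3894 and 3742 in the bone marrow and 3728, 3708, 3489 and 4329.9 in the small intestine (-0.0038, 95% interval -0.39 to 0.39).

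Ratios of related genes within a library do not depend on the scale between libraries, and 23 pairs were compared in this way. The exact 2-sided permutation test over the 70 assignments of libraries cannot give a p below 0.0286. That value was reached by 15 pairs (adjusted permutation p = 0.0438 over the 23 pairs), with no overlap between tissues. Pairs of other genes were not compared, so no background share stands beside these 15. Of single genes averaging at least 10 reads, 67.4% did not overlap between tissues. For every read of Sf3b1 there were 0.357 ± 0.0138 (SD, n = 4) reads of Sf3b2 in the bone marrow and 0.0945 ± 0.0169 in the small intestine. The log2 ratio fell by 1.93, the furthest fall among the pairs. Srsf5 rose against its relatives: there were 2.38 ± 0.177 reads of Srsf5 per read of Srsf6 in the bone marrow and 9.34 ± 1.84 in the small intestine (log2 difference 1.96), and against Srsf4 the log2 ratio rose by 1.28. The Srsf3 to Srsf7 ratio went from 1.18 ± 0.0394 to 2.18 ± 0.262. Within the H and F family the log2 ratio of Hnrnph3 to Hnrnph1 rose by 1.13, while those of Hnrnph1 to Hnrnph2 and of Hnrnpf to Hnrnph1 fell by 0.99 and 0.94.

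The other pairs that passed behaved in the same 2 ways. Hnrnpdl rose against Hnrnpd by 1.13 on the log2 scale, Snrpb2 against Snrpa by 0.45 and Snrpn against Snrpb by 5.12, the last from few reads. Hnrnpll fell against Hnrnpl by 1.32, Prpf38b against Prpf38a by 1.02, Hnrnpab against Hnrnpd by 0.64, Hnrnpul1 against Hnrnpu by 0.52 and Hnrnpul2 against Hnrnpu by 0.45. Among the pairs that did not pass, with adjusted permutation p-values from 0.0821 up, were Hnrnpa1, Hnrnpa3 and Hnrnpa0 against Hnrnpa2b1, Srsf9 against Srsf1, Srsf12 against Srsf10, U2af1l4 against U2af1 and U2af1 against U2af2.

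**Figure D3:**
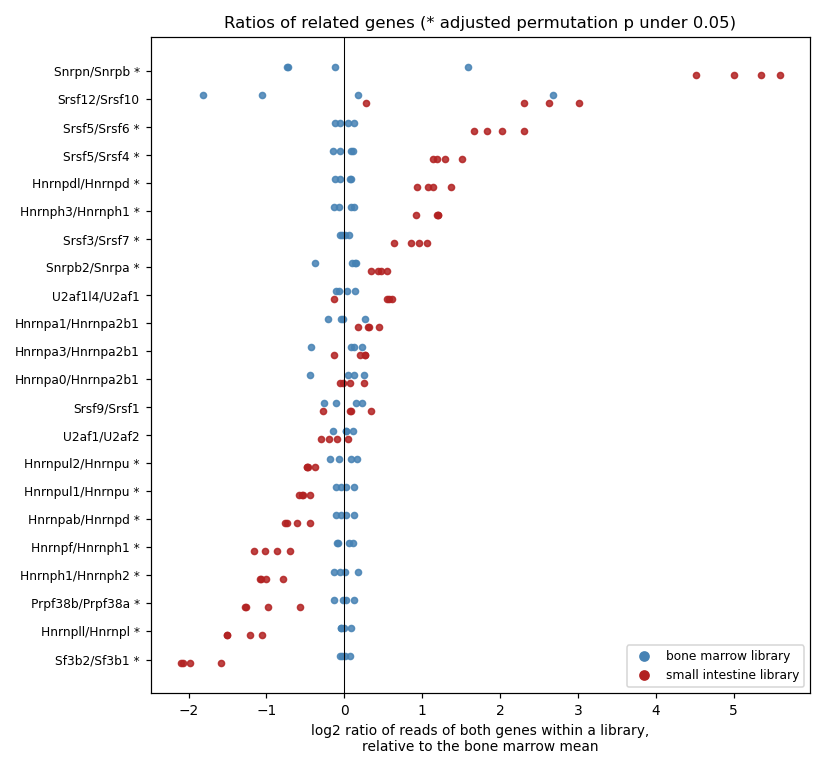
Log2 ratio of the reads of 2 related splicing genes within each library, relative to the bone marrow mean of the pair, for 22 of the 23 pairs (blue points for bone marrow, red for small intestine libraries). A star marks the 15 pairs past an adjusted exact permutation p of 0.05, in which the small intestine libraries lie wholly to 1 side of the bone marrow libraries.

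The 69 genes were set beside 119 other genes of the splicing machinery, in lists by function. Of these, 23 were higher, 51 lower and 45 not called (median -0.33). Of all genes, 22.0% were higher, 12.9% lower and 34.9% either. Of genes averaging at least 10 reads, 34.6% were higher, 28.6% lower and 63.1% either. The counts per list below are to be read beside the same shares. The assembly of snRNPs by the SMN complex, which loads Sm rings onto U snRNAs, was the list with the lowest median, with 13 of 14 genes lower, none higher and a median of -1.66. Gemin6 fell furthest of this list (-2.75), Smn1 itself was lower by 1.98 and Prmt5, a methylase of Sm proteins, by 1.95, and Snupn, an import adaptor of snRNPs, was not called (-0.43). Of 19 LSm and other U snRNP genes, 14 were lower, Lsm2 furthest (-2.44), and Snrnp70, the U1 70K gene, was higher (0.89).

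Of the 7 SR protein kinases, 4 were higher and 1 was lower. Clk1, a nuclear kinase of SR proteins, had 2072 ± 223 (SD, n = 4) normalised counts in the bone marrow and 12796 ± 2454 in the small intestine (difference 2.61, adjusted p = 3.46e-05 by limma). Srpk2 was higher too (2.08), and its relative Srpk1 was lower (-1.51). Tnpo3, the importer of SR proteins, was lower (-0.56). Of 14 SR-related genes, 6 were higher and 3 lower, with Rbm39 (1.17) and Rnps1 (-1.61) at the ends. Among 23 other regulators 10 were lower and 3 higher, from Ptbp1, a repressor of exons (-2.01), to Celf2 (0.998).

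The lists of later and other steps were mixed. Of 14 genes of the PRP19 complex and the catalytic steps, 4 were higher, Isy1 most (2.40), and Cdc5l was the 1 lower (-0.65). Of 9 genes of the minor spliceosome, 3 were higher, Armc7 most (2.45), and 3 lower, Pdcd7 furthest (-1.44). Of 10 helicases, Ddx5 was higher (1.59) and 2 were lower, Ddx46 furthest (-0.75). Of 8 exon junction complex genes, Casc3 was higher (0.68) and 3 were lower, Upf3b furthest (-1.35). These counts describe lists, and no list was tested against another.

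**Figure D4:**
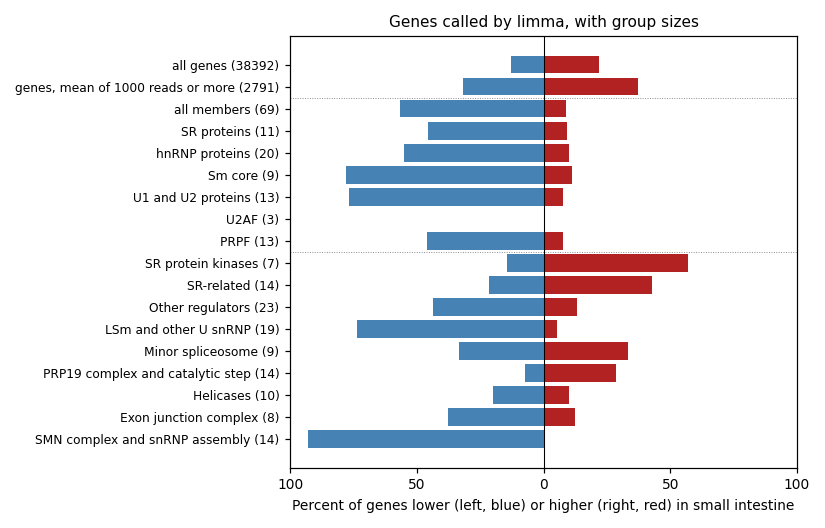
Percent of genes in each group called lower (blue, to the left) or higher (red, to the right) in the small intestine by limma at an adjusted p of 0.05, with the number of genes in brackets. The top bars give all genes (12.9% lower, 22.0% higher) and genes averaging at least 1000 reads (31.8% and 37.3%), the middle block the 69 splicing genes and their roles, and the lower block the companion lists.

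RefSeq promoters (GRCm38.p6, 250 bases before to 50 after the start) were at hand for 59 of the 69 genes. The ETS motif, searched as CCGGAAG on both strands, was in 20 of them (33.9%), against 12.7% of 18578 genes with a promoter and 19.1% of 2236 genes averaging at least 1000 reads. It was in 8 of 11 promoters of U1 and U2 protein genes, 4 of 11 of SR genes, 4 of 11 of PRP factor genes, 2 of 6 of Sm core genes, 0 of 2 of U2AF genes and 2 of 18 of hnRNP genes. By call, it was in 13 of 33 genes that were lower, 6 of 20 not called and 1 of 6 that were higher. The other motifs were also searched on both strands. The E-box CACGTG was in 15.3% of the 59, against 9.07% of all and 13.2% of genes averaging at least 1000 reads, and CCAAT was in 50.8% against 41.8% and 42.9%. TATAAA was in 11.9%, below the 13.95% of all and above the 8.86% of genes averaging at least 1000 reads, and the AP-1 motif TGANTCA was in 5.08% against 8.36% and 6.35%. No motif searched contains another, and a match is a run of letters, not a bound site. As examples, the 250 bases before the start are shown for 3 genes that were lower, from the U2, SR and hnRNP groups, and for Srsf5, the 1 higher gene with a match, each 5′ to 3′ on the strand of the gene, with the match (CCGGAAG or its reverse complement CTTCCGG) in capitals. The windows are chr11:4160104-4160353 (plus strand), chr17:80207306-80207555 (minus strand), chr5:99978939-99979188 (minus strand) and chr12:80945249-80945498 (plus strand), in the order printed.
Sf3a1: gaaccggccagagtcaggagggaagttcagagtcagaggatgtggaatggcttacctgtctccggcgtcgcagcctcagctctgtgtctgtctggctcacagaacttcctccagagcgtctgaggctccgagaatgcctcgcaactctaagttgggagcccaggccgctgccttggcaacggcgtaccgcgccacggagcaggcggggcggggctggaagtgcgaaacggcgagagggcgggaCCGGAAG
Srsf7: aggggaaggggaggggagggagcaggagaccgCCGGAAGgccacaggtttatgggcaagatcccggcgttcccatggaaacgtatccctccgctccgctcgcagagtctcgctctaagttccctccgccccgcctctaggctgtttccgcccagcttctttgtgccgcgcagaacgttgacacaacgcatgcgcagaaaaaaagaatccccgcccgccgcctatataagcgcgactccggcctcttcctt
Hnrnpd: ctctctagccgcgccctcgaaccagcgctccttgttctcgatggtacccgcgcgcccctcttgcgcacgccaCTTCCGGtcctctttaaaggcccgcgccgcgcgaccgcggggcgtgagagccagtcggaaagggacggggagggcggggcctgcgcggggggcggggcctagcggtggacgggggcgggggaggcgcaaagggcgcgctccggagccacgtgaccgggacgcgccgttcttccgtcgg
Srsf5: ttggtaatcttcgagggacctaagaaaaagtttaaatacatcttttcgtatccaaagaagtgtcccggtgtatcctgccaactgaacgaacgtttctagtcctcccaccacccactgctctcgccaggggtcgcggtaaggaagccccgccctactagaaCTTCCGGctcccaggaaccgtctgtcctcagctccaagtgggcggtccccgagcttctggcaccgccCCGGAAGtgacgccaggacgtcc
The match begins 7 bases before the start of Sf3a1, 218 before that of Srsf7 and 178 before that of Hnrnpd, and Srsf5 holds a pair of matches, 90 and 23 bases before its start.

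Across the 69 genes, exonic length and the difference had a Spearman's rho of 0.184, beside 0.0648 across the 16215 genes averaging at least 10 reads, a description across genes that share libraries. Of 20 genes under 3000 exonic bases, 15 were lower and 1 higher (median -0.90), and of 49 longer genes 24 were lower and 5 higher (median -0.51). Of all genes, 12.9% were lower and 22.0% higher, and of genes averaging at least 10 reads 28.6% and 34.6%. Genes outside the 69 were not split by length. Reads from near-identical copies could be counted for either gene. Leaving out the 18 genes with 10% or more of their 75-base windows shared, 30 of 51 were lower and 4 higher, with a median of -0.70. Exons of other genes overlap those of 27 of the 69 genes, and reads of such genes cannot be told apart.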

How the data were processed

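RNA of eosinophils sorted from bone marrow and small intestine was sequenced from a single end after amplification to cDNA, with 4 libraries per tissue. The authors aligned the reads to GRCm38 (Ensembl release 86), counted them per gene with the nf-core/rnaseq pipeline and deposited log2 values from the variance stabilisation of DESeq2 (R 4.0.3 per the labels). The aligner inside that pipeline, its strand setting and its handling of multi-mapped reads were not given in the sources used here. Column names gave the tissue of each library and no single sample.

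The deposited log2 values share a lowest value of 0.92971568, from which the transformation was inverted. Multiplied by a size factor per library (0.721 to 1.53), whole reads within 0.05 came back for 100% of genes in each library. The depth was 11508002 to 21289164 reads per library, which limits precision for the 2 splicing genes with a mean under 10 reads.

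Tissues were compared by limma (version 3.58.1, R 4.3.3) over the deposited values of 38392 genes in all 8 libraries. The prior was constant, and neither covariates nor filters were used. The p-values are 2-sided and adjusted by Benjamini-Hochberg over all genes (threshold 0.05). The unit is log2, so limma took the place of a count model. Ratios of related genes used recovered reads plus 0.5 in an exact 2-sided permutation test with Benjamini-Hochberg adjustment over 23 pairs. The limma fit was also run on simulated counts with a common dispersion, few changed genes and known library scaling. That setting differs from these data, so the run does not speak for the reliability of the calls. Other steps ran in Python 3.11.15 (scipy 1.17.1, numpy 2.4.6, pandas 2.3.3). Figures were drawn with matplotlib 3.10.9. Coordinates, exonic lengths and shared 75-base windows came from GENCODE M21.

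The members and lists were chosen with earlier results of these data known. Values in every library are given for the 5 largest rises and falls, the extremes and the gene with the most normalised counts in each role, the gene nearest to 0, pairs whose ratio passed, and SR and hnRNP genes against the majority of their role. Other genes with a call that rests on 1 library or is gained without 1 were named after their values were seen. In companion lists the called extremes were named, and Clk1, Srpk2, Smn1, Prmt5 and Snupn with the same reservation. Alternatives were other scalings, a filter at a mean of 10 reads, an intensity trend, limma voom with TMM on recovered reads, log2 of normalised counts plus 1 or 5, and leaving out each library. The limit of 1000 reads and the exclusion of genes with shared windows were chosen after seeing the data. The limit of 3000 exonic bases was not set in advance. Ddx39a was not analysed here. Of the 69 genes, 1 is counted but not reported by itself here.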

Additional observations from a re-analysis of the deposited data

Results flagged for a closer look

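Within each tissue, the highest and the lowest of the 4 libraries were examined for a gap to the next library beyond Dixon's 95% critical value, in 138 groups of normalised counts (69 genes in 2 tissues). There were 12 such groups, where chance gives about 1 in 20, or 6.9 of 138. In the bone marrow, BM_5 lay lowest for Hnrnpf (gap of 0.941 of the whole range), Sf3b2 (0.903), Hnrnpa1 (0.883) and Srsf9 (0.876), and highest for Snrpn (1, with the others at 0) and Srsf12 (0.863). BM_4 lay highest for Prpf3 (0.906, 1080.3 normalised counts against 851 to 873) and BM_3 highest for Sf3a2 (0.84). In the small intestine all 4 groups concerned SI_6, which held the most reads of epithelial and proliferation genes among the small intestine libraries. SI_6 lay highest for Snrpd1 (0.956, 199 against 113 to 116) and Prpf19 (0.889), and lowest for Prpf6 (0.888) and U2af1l4 (0.856). The part of those other reads in these values was not tested. Among the 45 called splicing genes, SI_6 was the small intestine library nearest to the bone marrow for 23 (51.1%), beside 48.9% of all called genes averaging at least 10 reads.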

How the results depend on the processing

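No paired analysis was possible because no number links a bone marrow library to a small intestine library. Of the 45 called splicing genes, 33 kept their call under each of the 16 alternatives that could be run for them (15 for Snrpn, which the filter on reads removed), 12 lost it under at least 1, and none changed sign. With each library centred on its median over all genes, 1 gene was higher and 44 lower, the median difference was -1.56, and 4 companion genes were higher (68 lower). With quantile normalisation the median was -0.88 and 15 companion genes were higher, and with voom the median was -0.77. With an intensity trend 10 genes were higher. Without 1 library, 6 to 9 genes were higher and 32 to 39 lower, the median ran from -0.69 to -0.61, and 20 to 28 companion genes were higher and 44 to 56 lower. The ratio of the shares of reads, 0.713, ran from 0.707 to 0.721, and was 0.644 without mitochondrial genes and ribosomal RNA. In every fit with 1 library left out, the 15 ratios that passed kept their sign. The permutation test was not run on the ratios with 1 library left out.

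Sign changes were seen in genes that were not called. With centring over all genes, the Prpf39 difference was -0.38, the Srsf11 difference -0.53, the Srsf10 difference -0.53, the Prpf18 difference -0.54, the Hnrnpc difference -0.57, the Prpf6 difference -0.62, the Hnrnpdl difference -0.65, the Snrpc difference -0.68, the U2af1l4 difference -0.75, the Hnrnph1 difference -0.80, the Prpf4b difference -0.84 and the Srsf3 difference -0.88. With quantile normalisation they were -0.14 for Srsf11, -0.0039 for Hnrnpc, -0.24 for Hnrnpdl, -0.035 for U2af1l4, -0.62 for Hnrnph1, -0.29 for Prpf4b and -0.63 for Srsf3, and those of Hnrnph1 and Srsf3 passed the threshold. With centring on genes averaging at least 10 reads, Prpf4b was at -0.0037 and Srsf3 at -0.044, and with voom at -0.026 and -0.067. Without 1 library, the Srsf3 difference ran from -0.019 to 0.10, the Prpf38b difference from -0.066 to 0.037 and the Hnrnpk difference from -0.070 to 0.034. The same centring over all genes left the rises of Srsf5 (0.19), Sf3b1 (0.14), Hnrnph3 (0.33), Hnrnph2 (0.18) and Prpf38a (0.11) in sign but not called, and quantile normalisation left Srsf5 (0.23) and Sf3b1 (0.21) so. Why the scaling changed these values was not tested.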
